A study of Mus musculus with 6 samples.

Results

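The genes described here make up the antioxidant defence of the cell and the targets of NRF2, and they were chosen by name as a list of 34. Of these, 31 had at least 1 probe set that a platform annotation assigns to that gene alone, out of 18193 genes measured in this way. Every probe set found for Prdx1 and Ftl1 also names another gene, and no probe set was listed for Prdx6, so these 3 are not analysed here. The values come from kidneys of male mice aged 2 to 3 months, 3 wild-type (WT) and 3 lacking the nuclear receptor ERRα (ERRa KO), each sample on 1 Affymetrix expression array. Both kidneys of a mouse were frozen, ground together and extracted as 1 sample, so a value is an average over all cell types of the organ. Each sample is labelled a biological replicate, with no statement that each came from another mouse, and if they did not, the p-values measure a spread that may be technical. The deleted segment of the ERRα gene and the strain are not given in the labels.

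NRF2, the product of Nfe2l2, is a transcription factor that is held in the cytoplasm and marked for degradation by KEAP1. Oxidants and electrophiles modify KEAP1, and NRF2 then enters the nucleus, pairs with small MAF proteins and binds antioxidant response elements near genes for glutathione synthesis, thioredoxin recycling and quinone reduction. The superoxide dismutases turn superoxide into hydrogen peroxide, which catalase, the peroxiredoxins and the glutathione peroxidases remove. The peroxiredoxins and the glutathione peroxidases do so with electrons that come from NADPH. The kidney proximal tubule, rich in mitochondria and peroxisomes, has a high demand for these systems, and ERRα is best known as an activator of genes for mitochondrial energy metabolism.

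Promoter sequences are shown for those genes with an unadjusted p under 0.05 in the comparison below that have an entry in the RefSeq promoter table (GRCm38.p6 build), each with 250 bases before and 50 after the start site on the gene's own strand. Capitals mark a match to a searched motif.
Nqo1, chr8:107403156-107403455, minus strand: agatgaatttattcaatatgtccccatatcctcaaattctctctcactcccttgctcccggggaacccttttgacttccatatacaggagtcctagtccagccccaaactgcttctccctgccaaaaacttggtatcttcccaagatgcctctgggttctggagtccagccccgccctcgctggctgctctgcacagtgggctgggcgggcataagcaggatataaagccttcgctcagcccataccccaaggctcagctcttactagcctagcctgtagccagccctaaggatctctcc
Ephx1, chr1:181017520-181017819, minus strand: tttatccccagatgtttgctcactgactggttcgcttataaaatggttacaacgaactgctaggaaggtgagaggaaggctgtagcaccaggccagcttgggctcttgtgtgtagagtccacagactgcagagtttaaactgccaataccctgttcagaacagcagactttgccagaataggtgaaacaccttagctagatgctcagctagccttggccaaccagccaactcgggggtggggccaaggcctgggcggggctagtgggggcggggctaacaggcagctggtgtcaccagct
Glrx, chr13:75839635-75839934, plus strand: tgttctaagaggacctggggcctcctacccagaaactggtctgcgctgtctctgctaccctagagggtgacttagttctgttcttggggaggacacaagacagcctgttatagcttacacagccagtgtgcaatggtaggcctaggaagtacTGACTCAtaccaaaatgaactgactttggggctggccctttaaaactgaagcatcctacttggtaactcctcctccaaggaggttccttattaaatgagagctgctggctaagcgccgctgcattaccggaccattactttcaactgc
The search covered both strands for the antioxidant response element TGACNNNGC, the ERR site TNAAGGTCA and the AP-1 site TGANTCA. An antioxidant response element that continues as TGACTCAGC also holds an AP-1 site. The windows of Nqo1 and Ephx1 held no match to any of the 3 motifs, and that of Glrx held the AP-1 site TGAcTCA, which starts 98 bases before the start site. Sequence outside these windows was not searched, so a gene without a match here may hold a site further from its start.

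Of the 34 listed genes 28 had a promoter entry, with 38 windows in all, some of which overlap. The antioxidant response element was found in 6 of the 38 windows, each of another gene, and in 12.4% of all 32851 promoter windows. The 6 elements are shown in the direction of the motif, with its fixed bases in capitals, because they are the matches found among these genes.
Nfe2l2: TGACtccGC
Gclm: TGACggtGC
Prdx1: TGACtcaGC
Txnrd1: TGACaaaGC
Sod1: TGACcacGC
Srxn1: TGACctaGC
Those of Nfe2l2, Gclm, Prdx1, Txnrd1 and Sod1 begin, as read along the gene, 240, 134, 133, 92 and 56 bases before the start site, and that of Srxn1 begins 28 bases after it. The AP-1 site was found in 4 of 38 windows, of Srxn1, Prdx1 and Glrx, and in 7.81% of all windows. The ERR site was in 0 of the 38 and in 1.28% of all windows. A match of letters describes the sequence and does not show binding.

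Esrra, the gene of ERRα, read 9.43, 9.43 and 9.52 in the 3 WT kidneys and 6.66, 6.51 and 6.41 in the 3 ERRa KO kidneys, in log2 units. This is 7.62-fold lower in the kidneys that the table listing values by sample labels ERRa KO (limma adjusted p = 9.85e-06), the direction a deletion of the gene gives. A second deposited table holds the same numbers with the 2 genotype headings exchanged, while its own fold change column goes with the sample table. Under the exchanged headings the deleted gene would read 7.62-fold higher in ERRa KO kidneys and every direction below would be the opposite, so the labels of the sample table were used. Of all genes, 90 passed the threshold of an adjusted p under 0.05 (limma, Benjamini-Hochberg over 18193 genes), a share of 0.495%. ERRa KO replicate 3 stood apart through liver transcripts: 13 of 15 measured liver markers were highest there, and Alb, the albumin gene, read 12.07 there and 6.48 to 6.80 on the other 5 arrays.

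Among the antioxidant genes, 1 of 31 passed the threshold between the genotypes, a share of 3.23% beside 0.495% of all genes. Nqo1, which encodes the quinone reductase that is a classic target of NRF2, rose by 1.42-fold in ERRa KO kidneys. Gclc, the catalytic subunit of the enzyme that limits glutathione synthesis, read lower in all 3 ERRa KO kidneys by a log2 difference of similar size and did not pass the threshold. Most other genes of the list differed little: 21 of 31 had a log2 difference smaller than 0.1 in either direction, as did 63.8% of all genes. The list had 13 genes with a higher and 18 with a lower mean in ERRa KO kidneys, and 52.6% of all genes had a higher mean. Its median log2 difference was -0.01, beside 0.01 for all genes.

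**Figure D1:**
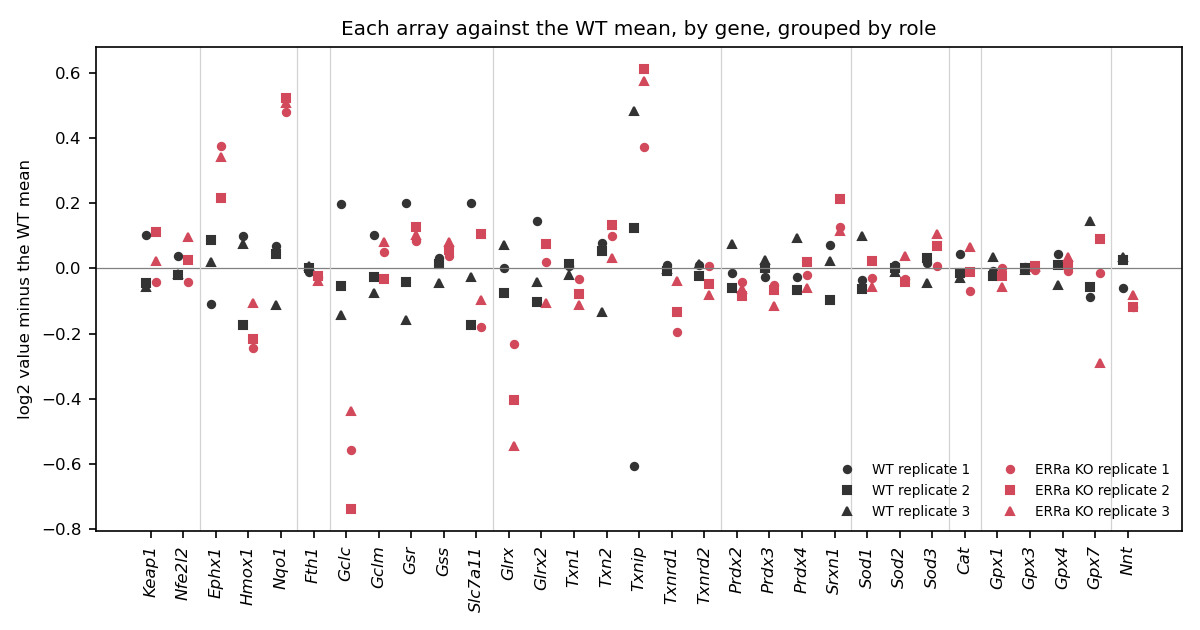
Log2 values of the 31 measured genes on each array, as the distance from the WT mean of the gene (vertical axis, log2 units), with WT in black and ERRa KO in red, a symbol for each replicate number, and vertical lines between groups of genes by role. The red points of Nqo1 lie about 0.50 above the WT mean, those of Gclc and Glrx lie below all WT points, and Txnip has widely spread WT points.

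The regulators themselves showed no detectable difference. Nfe2l2 read 9.78, 9.72 and 9.72 in WT and 9.70, 9.77 and 9.84 in ERRa KO kidneys, a log2 difference of 0.03 with a 95% interval of the fit from -0.11 to 0.16. Keap1 read 8.31, 8.16 and 8.15 in WT and 8.17, 8.32 and 8.23 in ERRa KO kidneys, a difference of 0.03 (95% interval -0.13 to 0.19). For both genes the 2 genotypes overlapped. The transcript level does not report the amount of NRF2 protein, which is set mainly by its degradation.

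Nqo1, which reduces quinones with electrons from NADPH or NADH, read 8.80, 8.78 and 8.63 on the WT arrays and 9.22, 9.26 and 9.24 on the ERRa KO arrays. All 3 ERRa KO kidneys lay above all 3 WT kidneys, and they lay close together (SD 0.02, beside 0.10 in WT, n = 3 each). The rise was 0.50 on the log2 scale (SE 0.06, 95% interval 0.35 to 0.65, limma adjusted p = 0.0328). The size of the rise was stable and its call was not: without any 1 of the 6 arrays the log2 difference ran from 0.447 to 0.536 and the adjusted p from 0.07 to 0.129. The gene has a single probe set. In a fit over all probe sets, added after the data were seen, the adjusted p was 0.0507, and the authors' deposited table gives an unadjusted p of 0.000935.

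Ephx1, the microsomal epoxide hydrolase, which opens reactive epoxides to diols, read 8.02, 8.22 and 8.15 in WT and 8.51, 8.35 and 8.47 in ERRa KO kidneys. The ERRa KO kidneys again lay above all WT kidneys. The difference of 0.31 (SE 0.07, limma adjusted p = 0.145) did not pass the threshold. Hmox1, which encodes the heme oxygenase that is induced by NRF2 and by heme, pointed the other way. It read 7.63, 7.36 and 7.60 in WT and 7.28, 7.31 and 7.42 in ERRa KO kidneys, with overlapping values and a difference of -0.19 (95% interval -0.39 to 0.01, adjusted p = 0.43). Fth1, the heavy chain of the iron store ferritin, read 14.31, 14.32 and 14.33 in WT and 14.30, 14.30 and 14.28 in ERRa KO kidneys. Its genotypes did not overlap, but the difference was -0.03.

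Glutathione is made in consecutive steps, first by glutamate-cysteine ligase, with the catalytic subunit GCLC and the modifier subunit GCLM, and then by glutathione synthetase. Gclc read 12.57, 12.32 and 12.23 in WT and 11.81, 11.63 and 11.93 in ERRa KO kidneys, so that all ERRa KO values lay below all WT values. The difference was -0.58 (SE 0.11, 95% interval -0.83 to -0.32, limma adjusted p = 0.0841). A second probe set of Gclc, with dimmer signal, read 11.59, 11.33 and 11.31 in WT and 10.72, 10.59 and 10.93 in ERRa KO kidneys, a difference of -0.67 without overlap. With a prior variance that follows the mean level, or when only genes above the median level were tested, Gclc passed the threshold as lower (adjusted p = 0.0196 and 0.0381). Over all alternatives tried its adjusted p ran up to 0.218.

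Gclm, the partner subunit, had nearly equal means in both genotypes. It read 11.87, 11.74 and 11.69 in WT and 11.82, 11.74 and 11.85 in ERRa KO kidneys, with overlapping groups, a difference of 0.03 and a 95% interval from -0.12 to 0.19. That interval and the interval of Gclc do not meet, while the difference between the 2 genes was not tested itself. Gss, the synthetase of the last step, read 11.36, 11.34 and 11.28 in WT and 11.37, 11.38 and 11.41 in ERRa KO kidneys, a difference of 0.06. Gsr, which recycles oxidised glutathione with NADPH, had a difference of 0.11 with overlapping values, which was 0.205 without WT replicate 1 and 0.026 without WT replicate 3. Slc7a11, the cystine importer, had means of 3.48 in WT and 3.43 in ERRa KO kidneys, where a dim signal leaves little to measure.

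**Figure D2:**
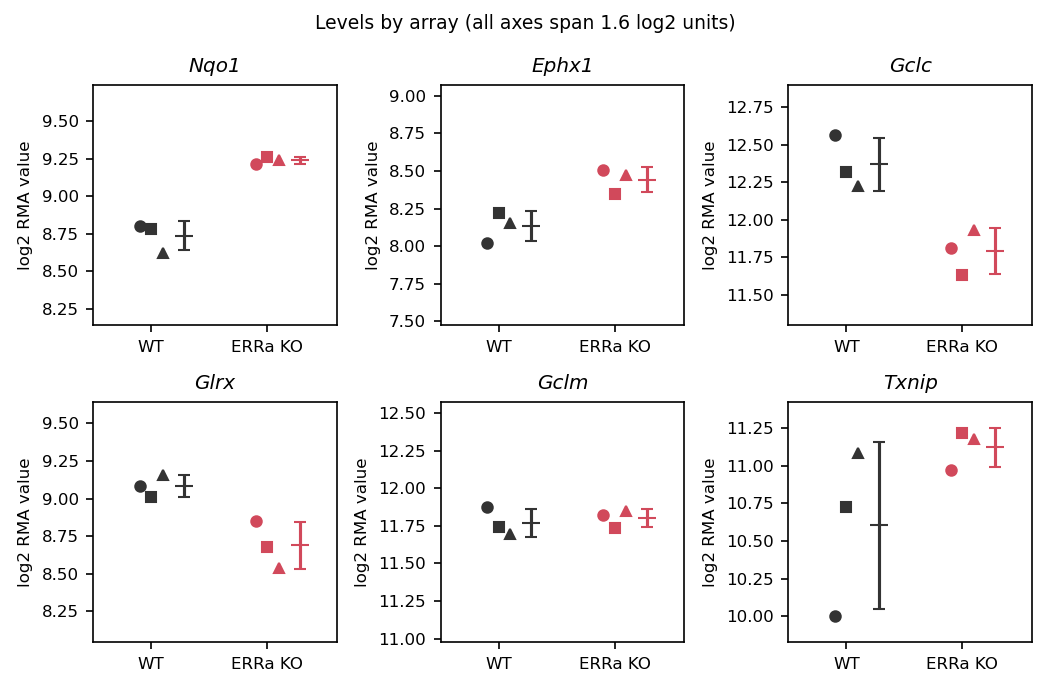
Log2 RMA values of Nqo1, Ephx1, Gclc, Glrx, Gclm and Txnip on each array (vertical axis, log2 units), with 3 WT (black) and 3 ERRa KO (red) points and, beside each group, its mean with the SD. The groups are separate for Nqo1, Ephx1, Gclc and Glrx and overlap for Gclm and Txnip, where WT replicate 1 of Txnip reads 10.00.

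In the thioredoxin and glutaredoxin group 5 of 7 genes had a lower mean and 2 a higher mean in ERRa KO kidneys, and 0 passed the threshold. Glrx, the cytosolic glutaredoxin that removes glutathione from protein thiols, read 9.08, 9.01 and 9.16 in WT and 8.85, 8.68 and 8.54 in ERRa KO kidneys. All ERRa KO values lay below all WT values, with a difference of -0.39 (SE 0.09, 95% interval -0.60 to -0.19, limma adjusted p = 0.123). Its other probe set gave -0.42, also without overlap. Glrx passed the threshold as lower under 1 alternative, the prior variance with a trend (adjusted p = 0.0465), and its adjusted p ran up to 0.348 elsewhere. Glrx2, the mitochondrial glutaredoxin, had a difference of -0.005 between overlapping groups (95% interval -0.20 to 0.19).

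Txnip, which binds and restrains thioredoxin and responds to glucose, had one of the largest differences of the list and the widest spread. It read 10.00, 10.73 and 11.09 in WT and 10.97, 11.21 and 11.18 in ERRa KO kidneys. The groups overlapped because WT replicate 3 lay above ERRa KO replicate 1, and the difference of 0.52 had a 95% interval from -0.05 to 1.08 (adjusted p = 0.448). Without WT replicate 1 the difference was 0.216. Txnrd1, the cytosolic thioredoxin reductase and an NRF2 target, read 10.62, 10.60 and 10.61 in WT and 10.41, 10.48 and 10.57 in ERRa KO kidneys, below WT in each array, with a difference of -0.12 (adjusted p = 0.466). Txn1, the cytosolic thioredoxin, had a difference of -0.07 without overlap. Txn2 and Txnrd2, the mitochondrial thioredoxin and its reductase, had differences of 0.09 and -0.04 between overlapping groups, and Txn2 turned to -0.022 when all its probe sets were averaged.

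Of the peroxiredoxin system, which reduces peroxides with thioredoxin, 4 of 6 genes were measured and 0 passed the threshold. Prdx3, the mitochondrial peroxiredoxin, read 11.59, 11.62 and 11.64 in WT and 11.56, 11.55 and 11.50 in ERRa KO kidneys, a small difference of -0.08 without overlap (95% interval -0.20 to 0.04). Prdx2 and Prdx4, of the cytosol and the endoplasmic reticulum, differed by -0.06 and -0.02 with overlapping values. Srxn1, which repairs overoxidised peroxiredoxins and is induced by NRF2, read 8.75, 8.58 and 8.70 in WT and 8.80, 8.89 and 8.79 in ERRa KO kidneys. Its ERRa KO values lay above all WT values, by 0.15 (SE 0.07, adjusted p = 0.405). The other 3 probe sets of Srxn1, all dimmer, gave 0.06, -0.06 and -0.12, so the direction depended on the probe set.

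The enzymes that meet superoxide and hydrogen peroxide directly differed little between the genotypes. Sod1, Sod2 and Sod3, the cytosolic, mitochondrial and extracellular superoxide dismutases, had differences of -0.02, -0.01 and 0.06, with 95% intervals that stayed between -0.171 and 0.192. These are values of the brightest probe set of each gene. The next brightest gave -0.13 for Sod2 and 0.10 for Sod3, both without overlap. The dimmer probe sets of Sod2 gave -0.11 and 0.01 with overlapping groups. Cat, the catalase of peroxisomes, read 12.77, 12.72 and 12.70 in WT and 12.66, 12.72 and 12.80 in ERRa KO kidneys, a difference of -0.01 (95% interval -0.14 to 0.13). The glutathione peroxidases Gpx1, Gpx3 and Gpx4 had differences of -0.03, 0.002 and 0.01. Gpx3, the secreted peroxidase that the proximal tubule releases to plasma, read between 14.48 and 14.49 on all 6 arrays, and the highest value of any probe set on any array was 14.50. A value so near the top of the scale may be compressed, which was not tested. Gpx7, a peroxidase of the endoplasmic reticulum, was dim, with means of 4.45 in WT and 4.38 in ERRa KO kidneys.

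For Sod1 the difference depended on the probe set. The brightest of its 5 probe sets gave the difference of -0.02 used here. The next brightest read 11.89, 12.03 and 11.97 in WT and 12.13, 12.17 and 12.07 in ERRa KO kidneys, a difference of 0.16 without overlap. A much dimmer one gave -0.35, also without overlap, and 0 of the 5 passed the threshold over all probe sets. Of the 24 measured genes with several probe sets, 11 had probe sets with both signs.

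Nnt, the mitochondrial transhydrogenase that makes NADPH from NADH and the proton gradient, read 11.03, 11.11 and 11.12 in WT and 10.97, 10.97 and 11.01 in ERRa KO kidneys. All ERRa KO values were below all WT values, by 0.11 (log2 difference -0.11, 95% interval -0.23 to 0.02, adjusted p = 0.499). A second probe set gave -0.22 with overlapping groups.

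**Figure D3:**
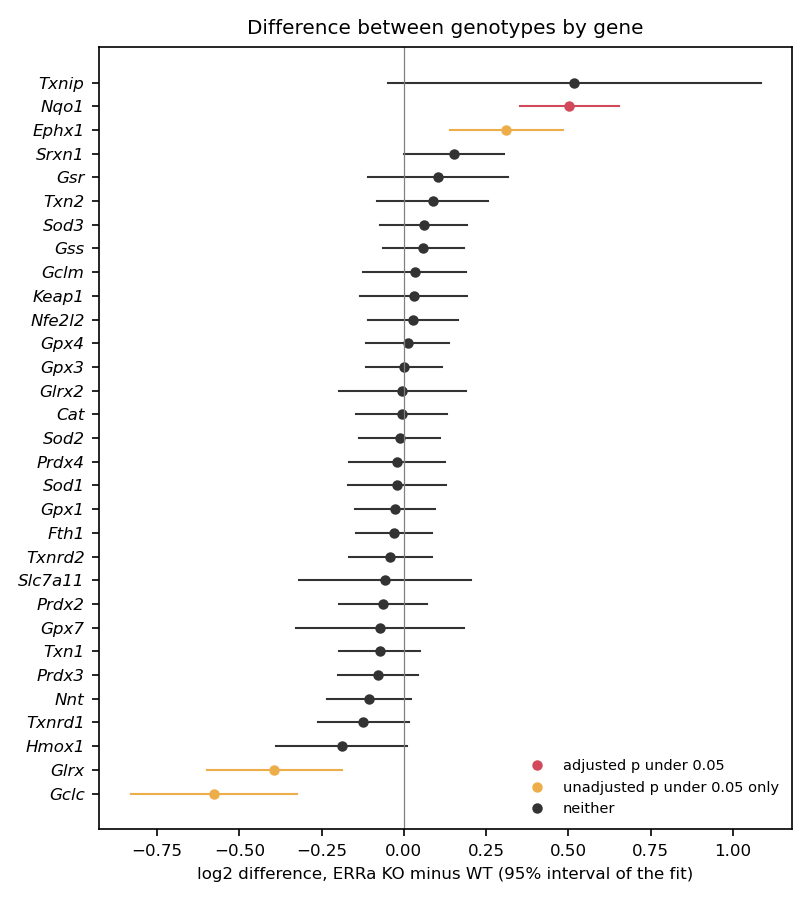
Log2 difference between ERRa KO and WT kidneys for the 31 measured genes (horizontal axis, points) with the 95% interval of the limma fit (lines), ordered by size. Nqo1 (red) passed the adjusted threshold, Ephx1, Gclc and Glrx (orange) had an unadjusted p under 0.05, and the intervals of the other 27 include 0.

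Read against all genes, the list holds about as many small p-values as the array in general. An unadjusted p under 0.05 was reached by 4 of 31 genes (12.9%), 2 higher and 2 lower, and by 12.4% of all genes. The call of Nqo1 alone is a share of 3.23%, beside 0.495% of all genes, or 0.269% for calls of higher level alone. The groups did not overlap for 11 of 31 genes, 4 above WT (9.11% of all genes) and 7 below (9.56%), a share of 35.5% that stands beside 18.7% of all genes. Most of these genes give bright signals, with 25 of 31 in the top 25% of genes by mean signal, and among the genes of that range 27.3% did not overlap and 14.4% had an unadjusted p under 0.05. Signal brightness depends on the probe set as well as on the abundance of the transcript, so it does not rank genes by abundance. The 95% interval lay within 0.2 of 0 on the log2 scale, that is within 1.15-fold, for 17 of the 31 genes. The median SD among replicates was 0.07 in WT and 0.05 in ERRa KO kidneys, and groups such as those of Fth1 stood apart at a log2 difference of -0.03.

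**Figure D4:**
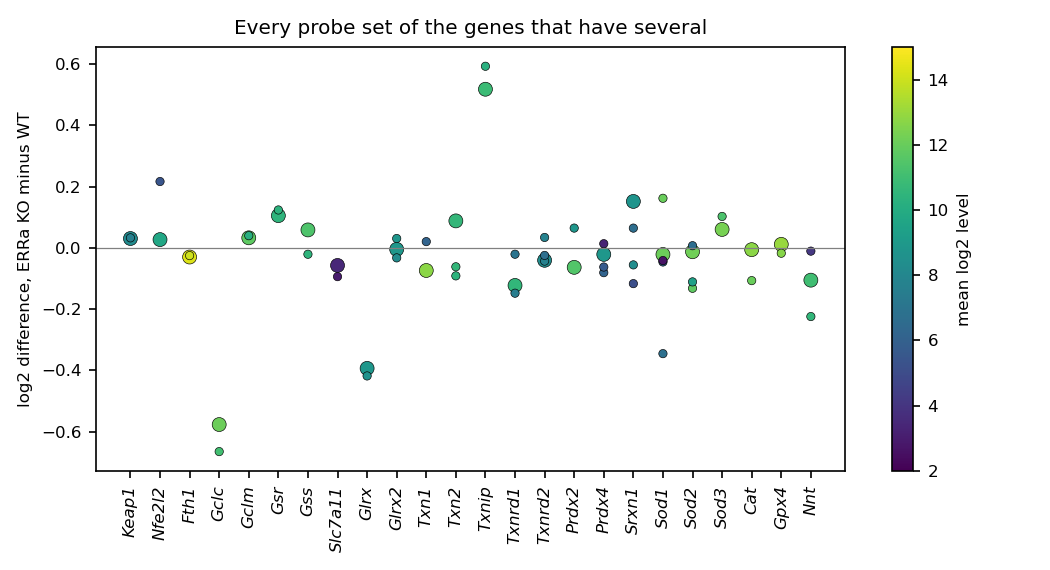
Log2 difference between ERRa KO and WT kidneys (vertical axis) for every probe set of the 24 genes that have several, with the probe set used for the gene as a large point and colour for mean log2 level. Both probe sets of Gclc, Glrx and Txnip lie on the same side of 0, while those of Sod1 and Srxn1 lie on both sides.

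Other genes of the redox system were read from lists, chosen like the first with earlier results of these data known, and 2 of 154 passed the threshold, beside 0.495% of all genes. Cbs, the first enzyme of the route from homocysteine to cysteine, rose by 0.50 (10.53 ± 0.08 in WT, 11.04 ± 0.11 in ERRa KO, SD, n = 3; limma adjusted p = 0.0438). Hao2, a peroxisomal oxidase that releases hydrogen peroxide, rose by 0.84 (10.42 ± 0.23 in WT, 11.26 ± 0.08 in ERRa KO, SD, n = 3; limma adjusted p = 0.0337). Among 19 measured genes of glutathione turnover and cystine or glutamate uptake 10 had a higher and 9 a lower mean, with 1 call, Cbs. Among 14 sources of superoxide and hydrogen peroxide 9 were higher and 5 lower, with 1 call, Hao2. An unadjusted p under 0.05 was reached by 5 of the 19 (26.3%, 3 higher and 2 lower). It was reached by 5 of the 14 (35.7%, 4 higher and 1 lower), beside 12.4% of all genes. The call of Cbs ended without any 1 array (adjusted p 0.0697 to 0.151), with the replicate block (0.129), with quantile normalization (0.0524) and in the fit over all probe sets (0.069). The call of Hao2 ended without any 1 array other than WT replicate 3 (adjusted p 0.0869 to 0.133, and 0.0219 without that one), with the block (0.0568) and in the fit over all probe sets (0.0507).

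Glutathione S-transferases, many of them NRF2-responsive, stood mostly on the higher side without a call. Of 20 measured genes 16 had a higher mean in ERRa KO kidneys, 10 did not overlap and lay above WT, 10 had an unadjusted p under 0.05 and 0 passed the threshold. Over all genes 52.6% had a higher mean, 9.11% lay above WT without overlap and 12.4% had an unadjusted p under 0.05. Their median difference was 0.19, beside 0.01 for all genes, with Gstk1 at 0.29 (adjusted p = 0.0916) and Mgst2 at 0.25 (adjusted p = 0.105). The signal of Mgst2 was dim, with means of 3.59 in WT and 3.84 in ERRa KO kidneys. Several of the transferases are close copies, so a probe set may read more than the gene it is named for. Of 12 other NRF2-responsive genes, reductases among them, 9 had a higher mean and 0 passed the threshold. An unadjusted p under 0.05 was reached by 3 (25%, beside 12.4% of all genes), 2 higher and 1 lower. The higher ones were Ptgr1 at 0.37 (adjusted p = 0.103) and Osgin1 at 0.55 (adjusted p = 0.208). The lower one was Akr1b10 at -0.18 without overlap, named after its value was seen. Of 14 regulators and partners of NRF2 and KEAP1, 0 passed and 1 had an unadjusted p under 0.05, Bach2 at 0.36, with Dpp3 next at 0.09.

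The remaining lists had 0 genes past the threshold. The counts of an unadjusted p under 0.05 that follow stand beside 12.4% of all genes. They are 11.8% of the NADPH list, 20.8% of the redoxins, 25% of the selenoproteins and 22.2% of the iron and heme genes. Of 17 enzymes that supply NADPH, 6 were higher and 11 lower and 2 had an unadjusted p under 0.05, Aldh1l1 at 0.30 (adjusted p = 0.0712) and Idh2 at -0.22. Of 24 redoxins and repair enzymes outside the first list, 5 had an unadjusted p under 0.05. Ccs, the chaperone that loads copper into SOD1, read 0.35 higher (adjusted p = 0.0687), and Mt1, a metallothionein, gave -0.32 (adjusted p = 0.111), which was -0.189 (adjusted p = 0.358) when its probe sets were averaged and passed the threshold above the median level and with the variance trend (adjusted p = 0.0431 and 0.0233). Of 16 selenoproteins and factors that make them, 4 had an unadjusted p under 0.05, with Selenos at 0.16 and Pstk at -0.19. Of 18 iron and heme genes, 4 had an unadjusted p under 0.05, with Slc40a1, the iron exporter ferroportin, at -0.42 (adjusted p = 0.208) and Heph at -0.22. Hamp, the hepcidin gene of liver, named after its values were seen, read 7.49 in ERRa KO replicate 3 and 3.06 to 3.38 on the other 5 arrays.

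**Figure D5:**
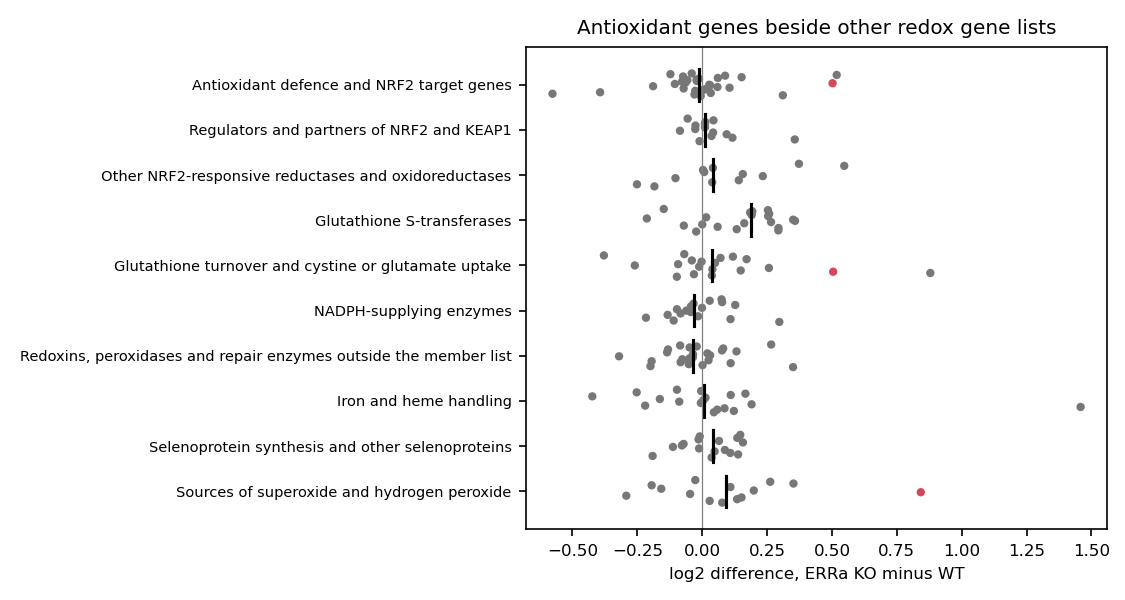
Log2 difference between ERRa KO and WT kidneys (horizontal axis) of each measured gene in the antioxidant list and in 9 other redox lists (rows), with red for an adjusted p under 0.05 and a black bar at the list median. The antioxidant list is centred at -0.01 and the glutathione S-transferases at 0.19, and the point at 1.46 among iron genes is Hamp.

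Markers of cell types were read on the same arrays, and for each the part it has in the results above was not tested beyond the values given. In whole kidneys fewer cells of a type and less RNA per cell cannot be told apart. Proximal tubule markers, 14 of 14 measured, had a higher mean in 9 and a lower mean in 5, with 3 wholly above and 3 wholly below WT. The median difference of the 14 markers was 0.01, and their summed level ran from 16.86 to 16.89 in WT and from 16.85 to 16.89 in ERRa KO kidneys in log2 units. Much of that sum came from Kap, Acsm2 and Slc27a2, with WT means of 14.43, 14.03 and 13.97. The highest value on any array was 14.50, so the sum may be compressed, which was not tested. The 2 proximal tubule markers with the smallest p were Slc5a2 at 0.26 and Slc22a8 at 0.23. The lowest difference of the list was -0.20, of Slc13a3, named after its value was seen. Macrophage markers had a lower mean in 9 of 13, with C1qc at -0.32 and Cd14 at -0.44. Of the 13, 5 lay wholly below WT (9.56% of all genes) and 1 wholly above (9.11%). An unadjusted p under 0.05 was reached by 6 (46.2%, beside 12.4% of all genes), 5 lower and 1 higher. The higher one was Adgre1, the F4/80 gene, named after its value was seen, at 0.21 without overlap (adjusted p = 0.198). The summed level of the macrophage markers ran from 10.87 to 11.01 in WT and from 10.81 to 10.88 in ERRa KO. The largest part of it came from Csf1r, with a WT mean of 9.85 and a difference of -0.03. Fat markers had a higher mean in 8 of 8 measured of 10, with Cidea at 0.99 and Ucp1 at 1.18. The others ran from 0.07 for Lipe to 0.22 for Lep, and the median was 0.10. Only Cidea, 1 of 8, did not overlap. The summed level of the fat markers ran from 11.34 to 11.56 in WT and from 11.47 to 11.71 in ERRa KO. Most of it came from Fabp4, with a WT mean of 10.81 and a difference of 0.11. Lipe, Lep and Fabp4 were named after their values were seen. Of 12 red blood cell markers 6 were measured, with summed levels from 9.95 to 10.16 in WT and from 9.98 to 10.08 in ERRa KO, Slc4a1 at -0.40 and Alas2 at 0.96. Most of that sum came from Slc4a1 and Bpgm, with WT means of 8.85 and 8.89, beside 3.28 for the globin gene Hba-a1. Whether Slc4a1 and the sum report red blood cells in these kidneys was not tested.

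Liver markers had a summed level of 14.95 in ERRa KO replicate 3 and of 14.43 to 14.63 on the other arrays, with Apoc3 at 0.78 and Cyp2e1 at 0.10. Most of each sum came from Cyp2e1 and Ttr, which were bright on every array (WT means 13.71 and 13.14). The sum therefore understates how far markers such as Alb stood apart on ERRa KO replicate 3. Without ERRa KO replicate 3 Nqo1 read 0.501 higher (adjusted p = 0.0788) and Ephx1, which liver expresses strongly, 0.296 higher (adjusted p = 0.242). Without it Gclc gave -0.647 and Glrx -0.317. The value of Nqo1 on that array, 9.24, lay between those of the other 2 ERRa KO arrays.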

How the data were processed

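Per the submitters' processing notes, the authors made the deposited log2 values with RMA, which corrects background, normalizes arrays to a common distribution and summarises probe sets, and so compresses weak signals. The labels record no settings of that step. The authors' deposited table adds a log2 fold change and an unadjusted p-value whose test is not stated. Its columns headed WT hold the values of the ERRa KO samples for 45101 of 45101 probe sets, and the reverse. Genotypes were taken from the table keyed by sample.

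After removal of 64 control probe sets, 34945 of 45037 named 1 gene, 932 several and 9160 none. Symbols were updated by gene identifier (34741 found, GRCm38.p6 annotation). Each gene took its probe set with the highest mean, giving 18193 genes, fitted with limma 3.58.1 in R 4.3.3 (two-sided, genotype as the term, no filter). The intervals are 95% intervals of each gene alone. The number of arrays limits precision.

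Genes were named by this rule: all members, Esrra, Alb, and from each other list the called genes or otherwise the 2 with the smallest p. Members and lists were chosen with earlier results of these data known. Alternatives were averaged probe sets, a replicate block, array weights, quantile normalization, a level filter, a variance trend, the omission of each array and, added after the data were seen, a fit over all probe sets.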

Additional observations from a re-analysis of the deposited data

How the results depend on the processing

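Over the 18193 genes the count of 90 calls became 18 with the replicate block, 220 of the genes above the median level, 309 with a prior variance that follows the level, 36 genes in the fit over all probe sets (added after the data were seen), and 10 to 39 when 1 array was left out. The other alternatives stayed within 1.5 times. The count of 1 called member became 0 with the replicate block, 2 above the median level (Nqo1 and Gclc), 3 with the variance trend (Nqo1, Gclc and Glrx), 0 in the fit over all probe sets, and 0 without any 1 array. With the block Nqo1 had an adjusted p of 0.101. The deviations of same-numbered WT and ERRa KO arrays from their group means had correlations of -0.039, -0.003 and -0.078, so the replicate numbers were not taken as pairs. Of the 31 members 17 kept their sign under the 12 alternatives other than the fit over all probe sets. The other 14 had differences of at most 0.088 and none was called under any alternative. Sign changes came with array weights for Sod1 (0.007), Prdx4 (0.006), Glrx2 (0.031) and Slc7a11 (0.009), with quantile normalization for Sod2 (0.005), Cat (0.016), Gpx3 (-0.016) and Glrx2 (0.002), and with averaged probe sets for Prdx2 (0.001), Gpx4 (-0.003) and Txn2 (-0.022). Leaving out 1 array gave Nfe2l2 -0.008 to 0.061, Keap1 -0.01 to 0.081, Gclm -0.005 to 0.084, Sod1 -0.053 to 0.029, Sod2 -0.038 to 0.002, Cat -0.041 to 0.027, Prdx4 -0.055 to 0.025, Gpx3 -0.001 to 0.006, Gpx4 -0.014 to 0.033, Gpx7 -0.152 to 0.038, Glrx2 -0.056 to 0.067 and Slc7a11 -0.144 to 0.043. Of the other genes named, Ptgr1, Gstk1, Aldh1l1, Ccs, Mt1 and Slc4a1 passed the threshold above the median level and with the variance trend, Slc5a2 and Slc22a8 with the trend, and Ccs also with array weights. Averaged probe sets gave 0.011 for Srxn1, 0.234 for Bach2 and -0.119 for Pstk, and Bach2 read 0.236 without ERRa KO replicate 1 and Ucp1 0.781 without WT replicate 2. The causes were not tested. Gpx7 and Slc7a11, below the median level, drop out under the level filter.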
